A study of Oryza sativa with 4 samples.

Results

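On rice chromosome 11, every listed copy in a row of family 18 glycosyl hydrolase genes was lower in coleoptiles after 2 days in air than in submerged coleoptiles. The copies were taken by position, as every listed transcript whose locus ID of the MSU rice annotation lies from LOC_Os11g47510 to LOC_Os11g47610. This gave 9 transcripts of 9 loci, among 3439 listed transcripts in all. The row had been picked because its copies stood out in the same values that are given below, so these values describe the copies and were not tested.

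The coleoptile is the sheath around the first leaf of a grass seedling. Coleoptiles of wild type rice (Oryza sativa), variety PB1 (Pusa Basmati 1), were profiled by RNA sequencing of the whole organ. The 2 control libraries came from seedlings kept under water until 7 days post germination. The 2 day 2 libraries came from seedlings grown under water in the same way and then held in air until 9 days post germination, when the coleoptiles were senescing. The sample labels name submergence as the treatment of both groups, and the transfer to air stands in the treatment protocol. Submergence against air, age and senescence differed together between the groups and cannot be told apart.

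Family 18 glycosyl hydrolases of plants include the class III chitinases, which cut chitin, the polymer of fungal cell walls. Cereals also carry proteins with the same fold that serve as inhibitors of microbial xylanases, the enzymes with which fungi break the xylan of the plant cell wall. XIP-I is the wheat protein of this type and RIXI a rice one. Both kinds of protein are counted among the defences of the plant, and genes of this family often sit in tandem rows.

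All 9 loci carry the description of a putative glycosyl hydrolase in the lists of the study, where the nearest named protein of each is a rice xylanase inhibitor protein, XIP1 for 5 copies and XIP2 for 4. By NCBI gene ID, 8 of the 9 were matched to the RefSeq gene table (assembly ASM3414082v1), and LOC_Os11g47580 carries the synonyms RIXI, XIP-I and Chib3H-a there. RefSeq keeps the 8 matched genes in the same order and has 2 unmatched genes among them. One carries the synonym Chib3H-h, and no listed transcript was matched to it, so the copies described here are the listed ones only. The other lies between the genes matched to LOC_Os11g47580 and LOC_Os11g47600, which is the place of the unmatched copy LOC_Os11g47590, and may be that copy. The label of the row thus rests on annotation. Since the tables hold changed transcripts only, markers of the organ could not be checked in them.

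The measure was FPKM, a fragment rate per kilobase that is scaled to how many fragments were mapped, with 1 value per transcript and group. Each group value pools both of its libraries, so no spread between replicates can be computed from the values used here. The number of fragments behind a value is unknown. A log2 ratio compares day 2 with control, with no pseudocount, and a copy was called lower when its log2 ratio was -2 or below and either group reached FPKM 1. The listed transcripts had been chosen by the study for a change of this size and, per its methods, for passing a p-value threshold over its replicates, which was not recomputed here. Of all 3439, 34.5% were lower by this call and 56.8% were higher, and 7.62% reached FPKM 1 at day 2 but were listed at 0 in control. All 9 copies were lower, but the choice of the row used these values and nothing can be read from that count. In bulk tissue, fewer cells of a type and less RNA per cell cannot be told apart.

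The copies together went from a summed FPKM of 4249 in control to 83.6 at day 2, which is 50.8-fold lower and a log2 ratio of -5.67. In control they held 1.58% of the summed FPKM of all listed transcripts, and at day 2 0.0578%. Per copy, control FPKM ran from 33.0 to 1103 with a median of 396.0, and day 2 FPKM from 0.651 to 31.1 with a median of 6.26. The lowest control value, 33.0 for LOC_Os11g47530, lay just above the highest day 2 value, 31.1 for LOC_Os11g47600. The copies are not replicates of a group, and the row was picked from these values. This gap is small beside the scaling factor of 1.86 tried below, so it depends on the scaling and nothing is read from it. The positions below are those of the authors' files, on the Nipponbare build IRGSP-1.0, and span 34.1 kb from 28727507 to 28761600. In the plot of FPKM by copy the control point of every copy lies to the right of its day 2 point.

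**Figure D1:**
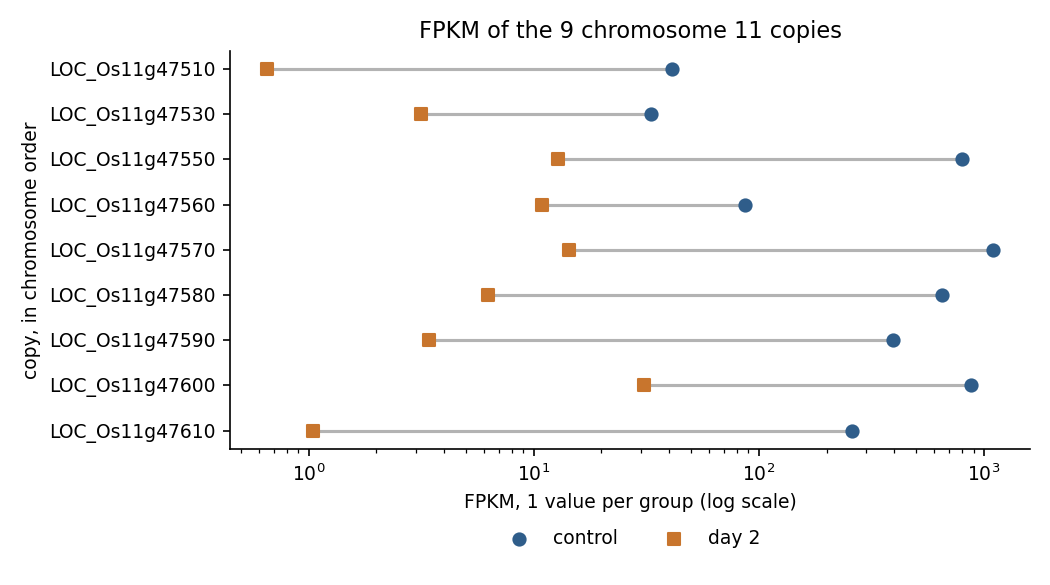
FPKM (log scale) of the 9 copies in chromosome order, with circles for control and squares for day 2, each the authors' value for 2 pooled libraries. Control values run from 33.0 to 1103 and day 2 values from 0.651 to 31.1, as listed and with no scaling factor applied.

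The copy with a name of its own, LOC_Os11g47580 (28753858 to 28755033), the gene of the inhibitor RIXI, had 653.2 FPKM under water and 6.26 FPKM after 2 days in air (log2 ratio -6.70). Its neighbour LOC_Os11g47590 (28755993 to 28757156), described like it as nearest to XIP1, had 396.0 FPKM under water and 3.43 FPKM after 2 days in air (log2 ratio -6.85). These adjoining copies had the most similar ratios of any neighbours in the row, although their levels differed in both groups.

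LOC_Os11g47610 (28760410 to 28761600), the last copy and also nearest to XIP1, went from FPKM 258.9 to 1.05. Its log2 ratio of -7.95 was the lowest in the row and ranked 9 among the 1187 lower transcripts of the tables. LOC_Os11g47600 (28758836 to 28760003), next to it and likewise nearest to XIP1, had 877.9 FPKM under water and 31.1 FPKM after 2 days in air (log2 ratio -4.82). The copies at this end thus had both the lowest ratio and the highest day 2 level of the row, side by side. The first copy, LOC_Os11g47510 (28727507 to 28728821), the remaining one nearest to XIP1, had 41.3 FPKM under water and 0.651 FPKM after 2 days in air (log2 ratio -5.99). It was the copy under FPKM 1 at day 2, and its control level was the second lowest.

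The other 4 copies are described as nearest to XIP2. Of these, LOC_Os11g47570 (28748101 to 28748484) had the highest control FPKM of the row, 1103, and 14.3 at day 2, a log2 ratio of -6.27. Its listed transcript spans 384 bases, against 1020 to 1315 bases for the other copies, and its matched RefSeq gene spans 2060 bases. FPKM is scaled to transcript length, so the level of this copy rests on a short model. LOC_Os11g47550 (28735985 to 28737061) had 799.2 FPKM under water and 12.8 FPKM after 2 days in air (log2 ratio -5.97).

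The remaining copies of this kind had the smallest changes of the row. LOC_Os11g47530 (28733144 to 28734249), which like the RIXI copy has the synonym chitinase in RefSeq, had 33.0 FPKM under water and 3.17 FPKM after 2 days in air (log2 ratio -3.38). LOC_Os11g47560 (28739615 to 28740634) had 86.4 FPKM under water and 10.9 FPKM after 2 days in air (log2 ratio -2.99). Both began at lower control levels than any copy but LOC_Os11g47510, whose log2 ratio was the median of the row.

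The log2 ratios of the 9 copies had a median of -5.99 and an SD of 1.63, from -7.95 to -2.99. Over all 1187 lower transcripts the median was -2.82 with an SD of 1.25. A level at least 32-fold lower was seen in 6 of the 9 copies, against 3.23% of all listed transcripts (111 of 3439), and the copies had been chosen with these values known. All 111 were among the 1187 lower transcripts, which is the closer base for copies that were all lower. In the ranking of the lower transcripts by ratio the copies stood between rank 9 and rank 517. The extent of the change therefore differed much within the row, from 7.93-fold to 246.8-fold.

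The ratios did not follow a steady course along the row. Adjoining copies are those next to each other among the listed ones, and unlisted genes may lie between them. They differed by 0.15 to 3.28 on the log2 scale, with a median of 2.60 over the 8 adjoining pairs. Of these pairs, 6 differed by more than 2. Over all 36 pairs of copies the median difference was 1.76, less than between adjoining copies. Across the 9 copies, distance along the row and log2 ratio had Pearson's r = -0.51 and Spearman's rho = -0.55. The 9 points share the same libraries, and this is a description of them.

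**Figure D2:**
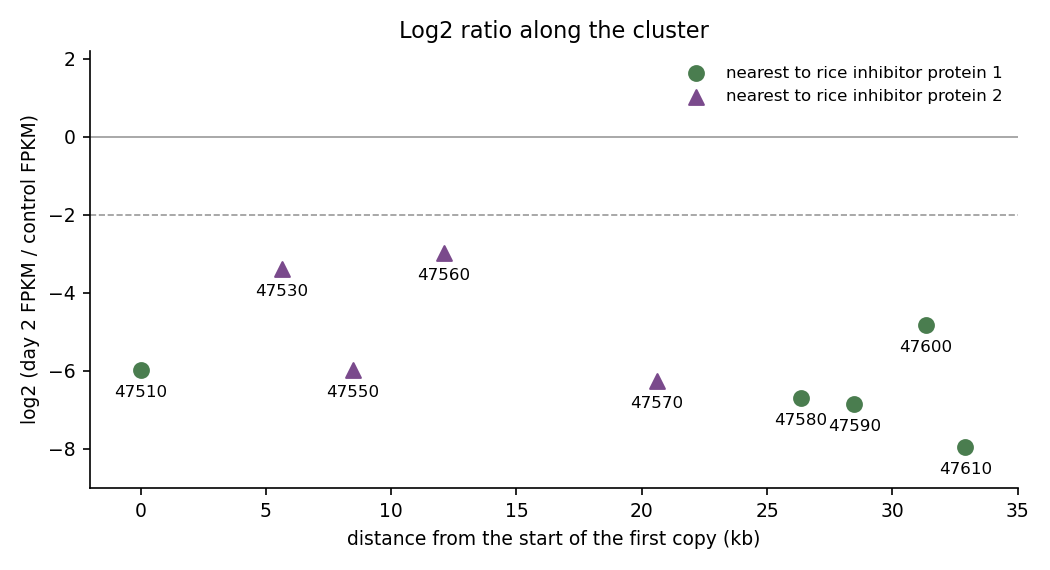
Log2 ratio of day 2 to control FPKM for each copy against the distance of its start from that of the first copy (kb), labelled with the last digits of the locus ID. Circles are copies nearest to XIP1 and triangles copies nearest to XIP2, the solid line marks no change and the dashed line -2, and the ratios lie between -2.99 and -7.95.

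Grouped by the nearest inhibitor protein, the copies overlapped in ratio. The 5 copies nearest to XIP1 had log2 ratios from -7.95 to -4.82 with a median of -6.70, and the 4 nearest to XIP2 from -6.27 to -2.99 with a median of -4.67. The summed FPKM of the first kind went from 2227 to 42.5 and that of the second from 2021 to 41.2, with log2 ratios of -5.71 and -5.62. In control the first kind held 52.4% of the summed FPKM of the row and at day 2 50.8%. The balance between the kinds in FPKM was thus almost the same in both groups, while single copies changed their part in it. LOC_Os11g47570, whose level rests on a short model, had 1103 of the 2021 FPKM of the second kind in control. LOC_Os11g47600 had 31.1 of the 42.5 FPKM of the first kind at day 2. The balance therefore depends in part on the short model of LOC_Os11g47570 and on the single copy LOC_Os11g47600.

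Control level and day 2 level had Pearson's r = 0.63 on the log2 scale and Spearman's rho = 0.82 across the 9 copies. Control level and log2 ratio had r = -0.49 and rho = -0.23, and the ratio contains the control level. Copies that were high in control therefore tended to be high among the copies at day 2 as well. LOC_Os11g47570, LOC_Os11g47600 and LOC_Os11g47550 were the highest 3 in both groups, in a different order, with 65.4% of the sum in control and 69.5% at day 2.

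The share of each copy in the sum shifted most for LOC_Os11g47600, from 20.7% in control to 37.1% at day 2. The share of LOC_Os11g47560 went from 2.03% to 13.0%, and it moved from rank 7 to rank 4 of the copies. In the other direction, the share of LOC_Os11g47570 went from 26.0% to 17.1%. That of the RIXI copy LOC_Os11g47580 went from 15.4% to 7.49%. The copies with the smaller falls thus made up more of what was left at day 2, which follows from how a share is computed. LOC_Os11g47530 also gained share, and the other 6 copies lost it.

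The number of equally abundant copies that would give the same evenness, the inverse of the summed squared shares, was 5.49 in control and 4.62 at day 2. Multiplied by transcript span, which approximates a share of fragments, LOC_Os11g47600 was first in both groups, with 25.5% in control and 43.4% at day 2. LOC_Os11g47570 then held 10.5% and 6.58%, so which copy led in control depended on the short model. Reads of similar copies can be divided among them by the mapping, and how the authors' tools did so here was not determined. Such a division could move the values of single copies and their shares, and also the sum where reads were shared with loci outside the row. Its part in these values was not tested.

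**Figure D3:**
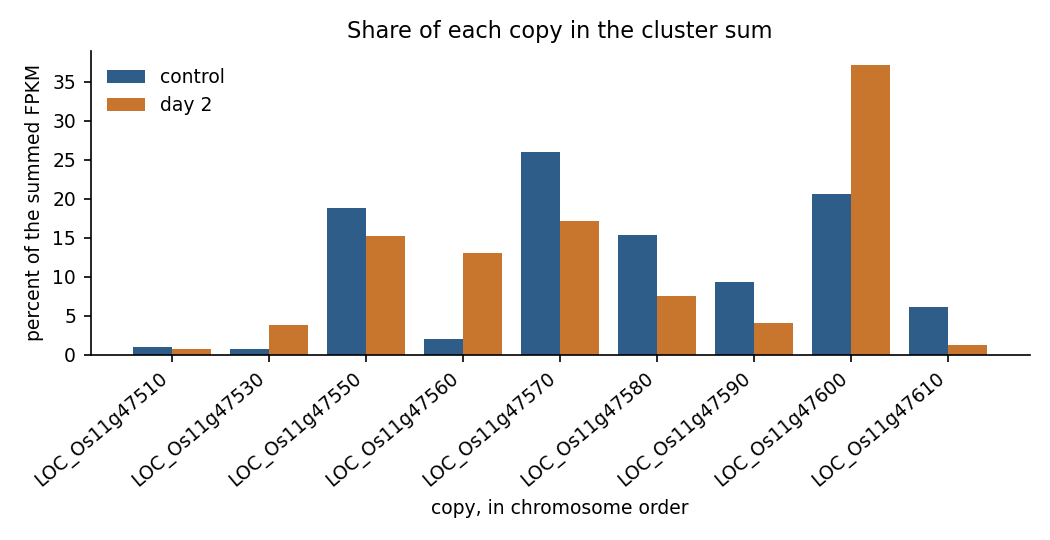
Percent of the summed FPKM of the row held by each copy, in chromosome order, in control (left bar) and at day 2 (right bar). LOC_Os11g47600 goes from 20.7% to 37.1% and LOC_Os11g47560 from 2.03% to 13.0%, while LOC_Os11g47570 goes from 26.0% to 17.1%.

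The 9 copies were the only listed transcripts between the outer ends of the row, and no listed transcript without a locus ID lay among them. Just outside, the nearest listed transcript before the row was 1072 kb away and carries no locus ID. It had 218.5 FPKM under water and 16.3 FPKM after 2 days in air (log2 ratio -3.75). After the row, 66.1 kb away, LOC_Os11g47809, described as a metallothionein, a small protein that binds metals, was higher at day 2, with 283.0 FPKM in control against 1817 FPKM (log2 ratio 2.68). The next was LOC_Os11g47870, described as a GRAS family transcription factor, with FPKM 1.26 in control and 6.87 at day 2, a log2 ratio of 2.45. The lower ratios thus ended with the row on this side. A window of the length of the row, slid over the starts of all lower transcripts, held at most 6 lower transcripts elsewhere in the genome, against 9 here. Counted instead as listed transcripts in succession that were all lower, the run with the row held 10, and 2 runs elsewhere held 11 each. The run with the row includes the transcript 1072 kb before it and so spans 1113 kb. The others lie from 21655488 to 21802616 on chromosome 10 and from 27853889 to 28758544 on chromosome 2, so the runs differ in length. The window and the run were both chosen as measures after the values had been seen.

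Family 18 genes outside the row went both ways. Taken as further members of the family were 9 listed loci that carry the description of a putative glycosyl hydrolase, on chromosomes 5, 6, 7, 8 and 10. Of these, 5 were lower at day 2 and 4 were higher, against 34.5% lower and 56.8% higher among all listed transcripts. For LOC_Os10g28080 and LOC_Os10g28120 the description names no inhibitor, and their place in the family is background knowledge. The list was taken from transcripts that had changed, so a share of the whole family cannot be given.

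Among the lower ones, LOC_Os08g40690 (chromosome 8, 25762456 to 25763823), described as nearest to XIP1, had 1447 FPKM under water and 3.40 FPKM after 2 days in air (log2 ratio -8.73). This was a lower ratio and a higher control level than those of any copy in the chromosome 11 row. Its neighbour LOC_Os08g40680 (25758873 to 25759533), described as nearest to XIP2, had 364.6 FPKM under water and 28.0 FPKM after 2 days in air (log2 ratio -3.70). Adjoining copies thus differed there too, though they are of different kinds. The listed transcript of LOC_Os08g40680 spans 661 bases, against 1368 for LOC_Os08g40690, so its level rests on a short model. The other 3 lower loci, LOC_Os05g15880, LOC_Os05g15920 and LOC_Os07g43820, had log2 ratios of -4.26, -3.95 and -4.18.

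Of the loci that were higher, LOC_Os05g15770 (chromosome 5, 8902500 to 8903789), described as nearest to XIP2, had 8.20 FPKM under water and 3083 FPKM after 2 days in air (log2 ratio 8.55). It lies on the same chromosome as LOC_Os05g15880 and LOC_Os05g15920, both of which were lower. LOC_Os10g28120 had 4.92 FPKM under water and 482.2 FPKM after 2 days in air (log2 ratio 6.62), and LOC_Os10g28080 2.41 against 24.5 FPKM (log2 ratio 3.35). LOC_Os06g25010, described as nearest to the wheat inhibitor, had 2.63 FPKM under water and 155.1 FPKM after 2 days in air (log2 ratio 5.88). None of these 4 loci exceeded FPKM 8.20 in control, a level that all 9 copies of the chromosome 11 row exceeded in control. That level is the highest control value of the 4 loci. Listed loci had changed at least 4-fold and the row was picked from its values, so higher loci tend to start low and lower ones high. Nothing is read from this contrast.

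**Figure D4:**
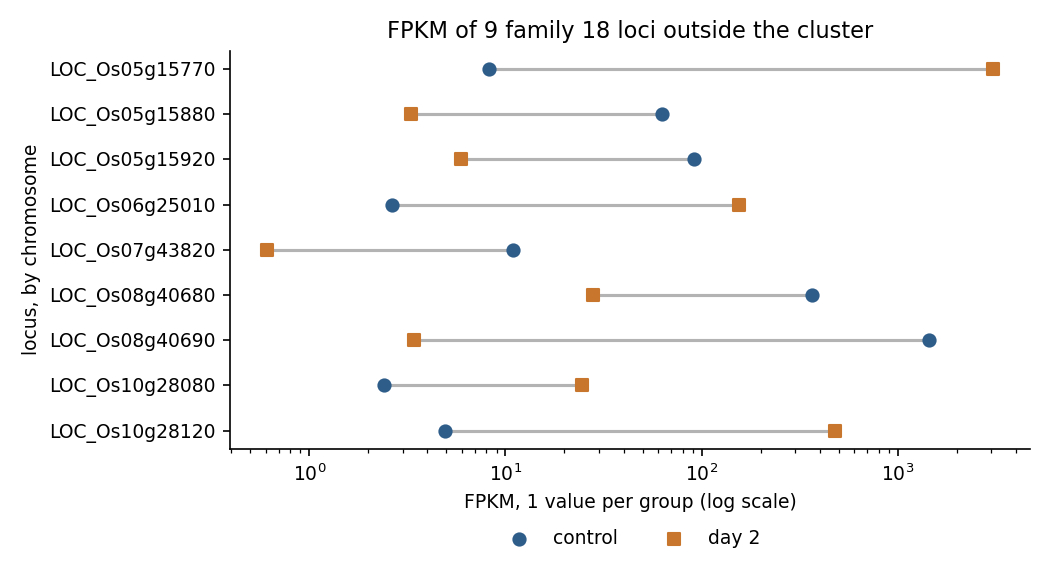
FPKM (log scale) of 9 listed family 18 loci outside the chromosome 11 row, with circles for control and squares for day 2, each the authors' value for 2 pooled libraries. For 5 loci the day 2 square lies to the left of the control circle and for 4 to the right, with LOC_Os05g15770 going from 8.20 to 3083.

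Over the 18 listed family 18 loci the summed FPKM of control was 6244 and that of day 2 was 3870 (log2 ratio -0.69). The chromosome 11 row held 68.0% of this sum in control and 2.16% at day 2. LOC_Os05g15770 alone held 79.7% of it at day 2. This sum over listed loci thus changed little beside the changes of its members, and which loci made it up differed between the groups. Its log2 ratio was smaller in size than the shift of 0.90 from the scaling factor tried below. The direction of this sum thus depends on the scaling, under which it was not recomputed.

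**Figure D5:**
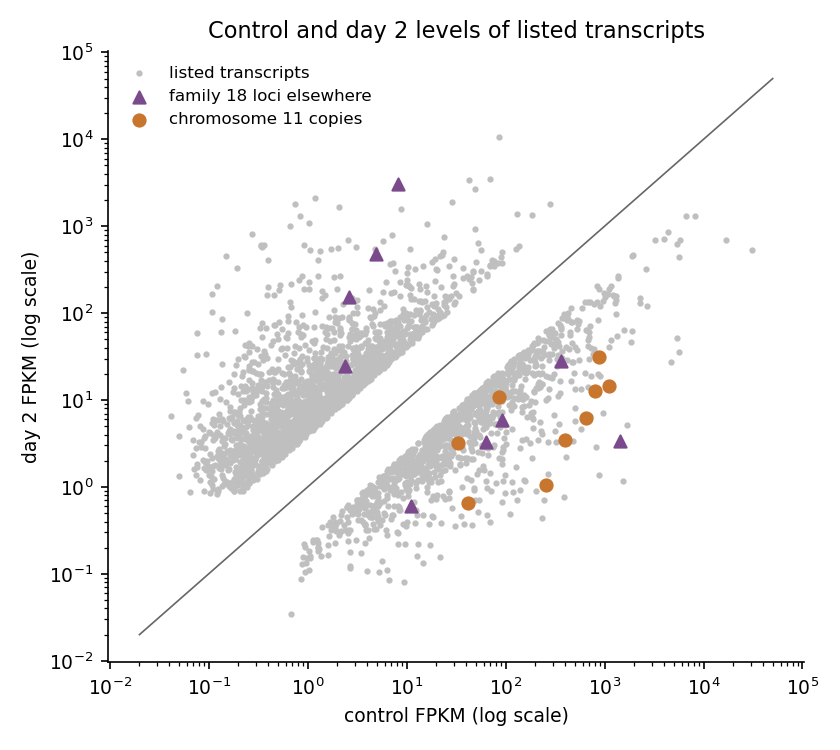
Control FPKM against day 2 FPKM (both log scale) of the listed transcripts above 0 in both groups, with the 9 copies as large circles and the 9 family 18 loci elsewhere as triangles. The line marks equal levels, around which the list is empty because transcripts under a 4-fold change were not listed, and all 9 copies lie below it.

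Genes that act beside this family were looked up from lists made of the study's descriptions. Family 19 chitinases, which cut chitin with an unrelated fold, had 2 of 3 listed loci lower and 1 higher, where 34.5% of all listed transcripts were lower and 56.8% higher. LOC_Os05g33130, which the lists call CHIT17, had 10.6 FPKM under water and 207.5 FPKM after 2 days in air (log2 ratio 4.29). LOC_Os02g39330 (CHIT1) went from FPKM 202.3 to 35.6 and LOC_Os05g04690 (CHIT11) from FPKM 15.5 to 3.70, with log2 ratios of -2.51 and -2.07. The ratios of both lower ones were smaller in size than those of every copy in the chromosome 11 row.

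Both listed barwin-type loci, wound-induced proteins of the PR-4 kind that bind chitin, were higher at day 2, as were 56.8% of all listed transcripts. LOC_Os11g37970 (WIP5) had 1.40 FPKM under water and 178.3 FPKM after 2 days in air (log2 ratio 6.99), and LOC_Os11g37940 (WIP2) 0.609 against 5.56 FPKM (log2 ratio 3.19). The 2 loci described as xylanase inhibitors outside family 18 were lower, as were 34.5% of all listed transcripts. LOC_Os01g71090 went from FPKM 34.3 to 1.82 and LOC_Os01g71140 from FPKM 1.83 to 0.368, with log2 ratios of -4.24 and -2.31. In control both were under the levels of 8 of the 9 copies in the chromosome 11 row.

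Plants have xylanases of their own in family 10, which act on the xylan of the plant cell wall. Of the 4 listed family 10 loci, 3 were higher at day 2 and LOC_Os05g25560 was listed at 0 in control with FPKM 1.98 at day 2. Over all listed transcripts these shares were 56.8% and 7.62%, and nothing particular can be read from 4 loci. LOC_Os01g04300 had the highest day 2 level of them, 23.4 FPKM against 1.47 FPKM in control (log2 ratio 3.99). LOC_Os03g14010 and LOC_Os03g47010 had log2 ratios of 3.76 and 4.29. The summed FPKM of the 4 loci came to 2.75 in control and to 44.4 at day 2. The chromosome 11 row had 4249 in control and 83.6 at day 2. Its inhibitor type is described above as acting on microbial xylanases, so no balance of enzyme and inhibitor is read from these sums.

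The 3 named loci whose pair of levels lay nearest to the medians of the copies were found by distance in log2 FPKM over the 2 group values. They were LOC_Os06g35480, described as a peroxidase precursor, at a distance of 0.31, LOC_Os01g65380, described as a patellin, at 0.37, and LOC_Os03g06705, described as a 3-ketoacyl-CoA synthase, at 0.39. The first went from FPKM 348.1 to 5.29, the second from 503.8 to 5.75 and the third from 306 to 6.73. A likeness over 2 group values says nothing beyond these levels.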

How the data were processed

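Per the study's methods, paired-end reads were filtered for quality, mapped with TopHat v2.0.11 to Nipponbare IRGSP-1.0, assembled with Cufflinks 2.2.1 and Cuffmerge and compared with Cuffdiff. Each deposited FPKM is 1 value per transcript and group, in which both libraries are pooled. The study gives read totals per library, but the fragments behind each FPKM and the Cuffdiff scaling option are not given in the sources used here. The study shortlisted the transcripts by fold change and by a p-value over its replicates. Both tables were joined on the transcript ID. Sums, shares, log2 ratios and correlations across copies were computed in Python 3.11.15 (pandas 2.3.3, numpy 2.4.6), and the functions were checked on simulated data. No test between groups was run, since no values per library were used. Names came from the study's descriptions, RefSeq synonyms and NCBI gene IDs in the study's lists. The text names all copies, their nearest listed neighbours, all loci of the lists and the 3 loci nearest in level. The members and lists were chosen with earlier results of these data known. Alternatives were pseudocounts of 0.1 and 1, other filters, a scaling factor, sums without the leading copy and weighting by span. Protein and promoter sequences were not used here.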

Additional observations from a re-analysis of the deposited data

How the results depend on the processing

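No paired analysis was possible because each group has 1 pooled value, and for the same reason no replicate could be left out. All 9 copies were lower by 4-fold or more under every pseudocount, scaling factor and filter tried, except that a filter of FPKM 1 in both groups removed LOC_Os11g47510 and left 8. No direction changed. The median log2 ratio, -5.99, was -5.86 with a pseudocount of 1, -6.12 with FPKM 1 in both groups, -5.09 with day 2 multiplied by 1.86 (the ratio of the listed sums) and -6.88 with day 2 divided by it. The log2 ratio of the sum, -5.67, was -4.77 and -6.56 under these factors, -5.50 without the copy highest in control and -6.00 without the copy highest at day 2. The SD of the ratios, 1.63, was 1.52 with a pseudocount of 1 and 1.74 with FPKM 1 in both groups. The largest share was 27.9% in control and 44.8% at day 2 without the copy highest in control, 32.7% and 27.3% without the copy highest at day 2, and 43.4% at day 2 with FPKM multiplied by span. The effective number of copies was 4.78 and 3.67, 4.52 and 5.02, and 5.63 and 4.01 under these 3 settings. Without the copy highest at day 2, the largest share was thus lower at day 2 than in control and the effective number higher. Both are the reverse of the main result, so the lower evenness at day 2 rests on that copy. With a pseudocount of 1, control level and log2 ratio had r = -0.69 and rho = -0.43 across the copies. These shifts follow from the construction of each setting. Of the family 18 loci elsewhere, 4 were lower and 4 higher with FPKM 1 in both groups. Adding transcripts without a locus ID gave no value, as none lay among the copies. The unknown fragment numbers limit LOC_Os11g47510 and LOC_Os11g47610 most, whose day 2 levels were near FPKM 1.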
